A study of Homo sapiens with 8 samples.

Results

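Protein-coding genes that lie head to head on opposite strands share a promoter, and 946 such pairs were described here in 4 maps of RNA polymerase II (RNAPII). A pair was kept when its genes were transcribed away from each other, did not overlap at their 5′ ends, and had transcription start sites (TSSs) at most 1 kb apart. TSSs were those of the longest isoform of each gene in GENCODE release 44, in GRCh37 coordinates. The pairs held 9.56% of the 19794 protein-coding genes. Their TSSs lay 1 to 997 bp apart, with a median of 169 bp and quartiles of 94 and 315 bp. Each pair is written with the gene on the minus strand first, and the minus and plus sides are the parts of the promoter on either side of the midpoint between the TSSs.

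The cells were MDA-MB-453, an established human breast cancer cell line, treated for 4 h with vehicle or with 600 nM of the CDK9 inhibitor CDDD11-8, written D11-8 in the sample labels. RNAPII was mapped by chromatin immunoprecipitation and sequencing (ChIP-seq), with 2 biological replicates per treatment taken from consecutive passages of the single line. The deposited lists give peaks that were called in each library separately against its own input chromatin. They held 78306 and 57493 peaks for vehicle and 25897 and 21842 for CDDD11-8, without read totals. The study's methods set a lowest number of reads, but how deeply single libraries were sequenced is not known here.

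At a bidirectional promoter, a single nucleosome-free stretch of DNA holds separate initiation complexes that face opposite ways. Such promoters are typically rich in CpG dinucleotides and poor in TATA boxes, and many serve genes of DNA repair, the nucleosome, mitochondria and other housekeeping functions. After initiation RNAPII pauses a short distance downstream of each TSS, and the kinase CDK9 releases it into the gene body. Since each start site has its own pausing polymerase, the width and symmetry of the RNAPII peak and its spread into either gene can be read side by side for the same promoter.

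The DNA between the TSSs is shown for pairs that the values below return to, as the plus strand of GRCh37 from the minus-strand gene's TSS to the plus-strand gene's TSS, read 5′ to 3′. Capitals mark exact matches, on either strand, to short core letters of factors known at such promoters. These letters were CCGGAAG for ETS factors, GCATGCGC for NRF1, CCAAT for NFY, GGGCGG for SP factors, TATAAA for the TATA box, ATGGCGGC for YY1, and TTCGCGC and TTGGCGC for E2F. The first 4 are long-known bidirectional promoters, the histone pair has a TATA match on 1 strand and CCAAT matches on both, and the rest had the most altered peaks or gene bodies. The spans lie at chr9:136223363-136223426 for SURF1/SURF2, chr19:39421403-39421584 for SARS2/MRPS12, chr17:76183314-76183443 for TK1/AFMID and chr13:110959504-110959631 for COL4A1/COL4A2. The histone pair H2AC14/H2BC14 lies at chr6:27782555-27782800, XRCC3/ZFYVE21 at chr14:104181841-104182067 and TMEM203/NDOR1 at chr9:140100100-140100152. PTRH2/VMP1 lies at chr17:57784987-57785015, SNX5/MGME1 at chr20:17949623-17949661, C17orf75/ZNF207 at chr17:30677042-30677176 and C2orf76/DBI at chr2:120124410-120124500.
SURF1/SURF2: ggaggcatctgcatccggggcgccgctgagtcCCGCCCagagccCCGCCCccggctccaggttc
SARS2/MRPS12: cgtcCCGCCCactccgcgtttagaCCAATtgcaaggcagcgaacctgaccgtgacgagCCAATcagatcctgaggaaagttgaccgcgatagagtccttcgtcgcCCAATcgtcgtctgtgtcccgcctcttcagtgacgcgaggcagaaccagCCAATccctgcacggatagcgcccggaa
TK1/AFMID: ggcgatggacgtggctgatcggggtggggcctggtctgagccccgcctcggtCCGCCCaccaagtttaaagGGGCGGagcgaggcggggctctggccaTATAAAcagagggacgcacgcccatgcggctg
COL4A1/COL4A2: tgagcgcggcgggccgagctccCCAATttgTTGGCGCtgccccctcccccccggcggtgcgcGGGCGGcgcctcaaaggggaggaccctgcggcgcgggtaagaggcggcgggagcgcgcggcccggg
H2AC14/H2BC14: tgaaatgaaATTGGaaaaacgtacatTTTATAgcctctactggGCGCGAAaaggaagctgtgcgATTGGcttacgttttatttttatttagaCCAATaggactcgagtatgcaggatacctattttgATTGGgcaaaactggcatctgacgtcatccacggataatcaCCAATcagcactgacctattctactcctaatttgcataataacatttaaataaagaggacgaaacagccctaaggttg
XRCC3/ZFYVE21: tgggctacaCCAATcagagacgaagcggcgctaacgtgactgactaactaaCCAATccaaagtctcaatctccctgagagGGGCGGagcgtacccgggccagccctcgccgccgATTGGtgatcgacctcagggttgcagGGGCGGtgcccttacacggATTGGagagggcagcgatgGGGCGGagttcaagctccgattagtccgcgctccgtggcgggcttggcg
TMEM203/NDOR1: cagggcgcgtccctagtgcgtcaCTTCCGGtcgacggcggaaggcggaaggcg
PTRH2/VMP1: gagggaccggaCCGGAAGtgacgtgagcg
SNX5/MGME1: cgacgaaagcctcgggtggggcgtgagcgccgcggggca
C17orf75/ZNF207: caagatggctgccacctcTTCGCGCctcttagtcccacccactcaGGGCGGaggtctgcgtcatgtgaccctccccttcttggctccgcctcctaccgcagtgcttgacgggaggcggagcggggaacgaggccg
C2orf76/DBI: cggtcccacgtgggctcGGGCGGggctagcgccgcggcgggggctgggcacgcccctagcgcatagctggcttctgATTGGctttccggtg

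Across all pairs, sequence was summarised from 250 bp before to 50 bp after each TSS. Where the TSSs of a pair lie less than 250 bp apart, this window also holds the partner's TSS, and a site can count for both. Paired and lone windows are therefore not alike, and what this adds to the paired shares was not tested. The ETS core was present at 29.5% of the 1892 paired TSSs, against 10.8% of 15363 lone TSSs, which have no other protein-coding TSS within 5 kb, and 13.0% of all protein-coding TSSs. Among TSSs with an RNAPII peak in all 4 libraries it was present at 31.8% of 1698 paired and 21.0% of 6489 lone TSSs. The YY1 core was found at 9.04% of paired and 3.41% of lone TSSs, and at 9.84% and 6.72% of those with a peak. TATAAA went the other way, at 3.70% of paired and 10.9% of lone TSSs, although with a peak required the shares were 3.71% and 4.87%. The SP box was at 74.7% of paired and 55.6% of lone TSSs and at 75.7% and 75.3% of those with a peak. CCAAT was found at 39.3% and 34.8%, the NRF1 letters at 7.24% and 3.65%, the E2F core with C at 4.12% and 2.70%, and the E2F core with G at 6.08% and 3.52%, of paired and lone TSSs. With a peak required these shares were 40.3% and 37.4% for CCAAT, 7.66% and 6.60% for NRF1, 4.59% and 4.56% for E2F with C, and 6.01% and 5.55% for E2F with G. Median GC content was 65.3% at paired and 61.7% at lone TSSs, and 65.3% and 66.0% at those with a peak. The median ratio of observed to expected CpG dinucleotides was 0.887 and 0.718, and 0.896 and 0.863 with a peak. A match to these letters is a description of the sequence, and binding of the factors was not measured.

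RNAPII peaks were found at most pairs in both treatments. The promoter was taken as the span between the TSSs with 300 bp on either side. A peak overlapped it for 91.1% and 92.2% of pairs with vehicle and 92.6% and 91.9% with CDDD11-8. The means were 91.6% ± 0.747 (SD, n = 2) and 92.2% ± 0.523 (SD, n = 2), and the library values overlapped (exact two-sided permutation test, p = 0.667). With the 21842 best peaks of each library they did not overlap, at 88.2% and 90.2% with vehicle and 92.6% and 91.9% with CDDD11-8 (p = 0.333 by the same exact test). With 2 libraries against 2, the smallest p this test can give is 0.333, so no comparison of treatments below can pass 0.05, and each is described by whether the 4 library values overlap. In all, 854 pairs had a peak in every library and 64 in none. A further 3 pairs had one in both CDDD11-8 libraries only, and 1 in both vehicle libraries only. Single paired TSSs carried a peak more often than lone TSSs in each library, where 44.9% and 45.8% of lone TSSs had one with vehicle and 47.1% and 45.1% with CDDD11-8. The difference was 45.9 and 46.0 percentage points with vehicle and 45.3 and 46.5 with CDDD11-8 (exact two-sided sign-flip test over the 4 libraries, p = 0.13, the smallest it can give). Both TSSs of a pair mostly lie under the same peak, so RNAPII at either gene marks both as occupied. The difference can therefore not be read as occupancy per gene. The strongest fold enrichment at a pair, a ratio to local background that was compared only within a library, had a median 1.13 and 1.04 times that of lone promoters with vehicle and 1.21 and 1.26 times with CDDD11-8. A lone window is shorter than that of a pair.

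Among occupied pairs, 1 peak nearly always covered both TSSs. This was so for 834 and 849 pairs with vehicle and for 872 and 858 with CDDD11-8. For vehicle this share came to 97.1% ± 0.432 (SD, n = 2), and for CDDD11-8 to 99.1% ± 0.572 (SD, n = 2), and both CDDD11-8 values lay above both vehicle values (exact permutation test, p = 0.333). The difference of 2.08 percentage points was 0.917 with the same number of best peaks in each library, without overlap. Separate peaks at the TSSs of a pair were seen 22 and 16 times with vehicle and 1 and 7 times with CDDD11-8. A peak at only 1 of the TSSs was rare too, with between 3 and 7 pairs in each library. The share with 1 joint peak was lowest where the TSSs were farthest apart. It was 87.0% and 93.1% with vehicle and 96.2% and 94.1% with CDDD11-8 for TSSs 501 to 1000 bp apart. A few pairs shared their peak with another pair, from 8 to 13 pairs in a library, among them the clustered histone pairs, so values of neighbouring pairs can repeat.

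Around the midpoint of the TSSs the peaks were broader with CDDD11-8 on both sides. At 2 kb on the minus side, 45.6% and 43.7% of the 854 pairs were inside a peak with vehicle and 80.4% and 72.5% with CDDD11-8. On the plus side at 2 kb the shares were 46.4% and 44.0% with vehicle and 78.7% and 71.0% with CDDD11-8. At 8 kb the order was inverted, with 26.3% and 19.8% for vehicle and 13.1% and 9.60% for CDDD11-8 on the plus side. All of these shares come from the full lists, in which vehicle had more peaks, and were not repeated with equal numbers. Lone promoters were less covered upstream than downstream of the TSS, with 26.0% and 25.6% against 43.2% and 42.5% at 2 kb with vehicle and 53.3% and 43.7% against 68.8% and 60.2% with CDDD11-8.

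**Figure D1:**
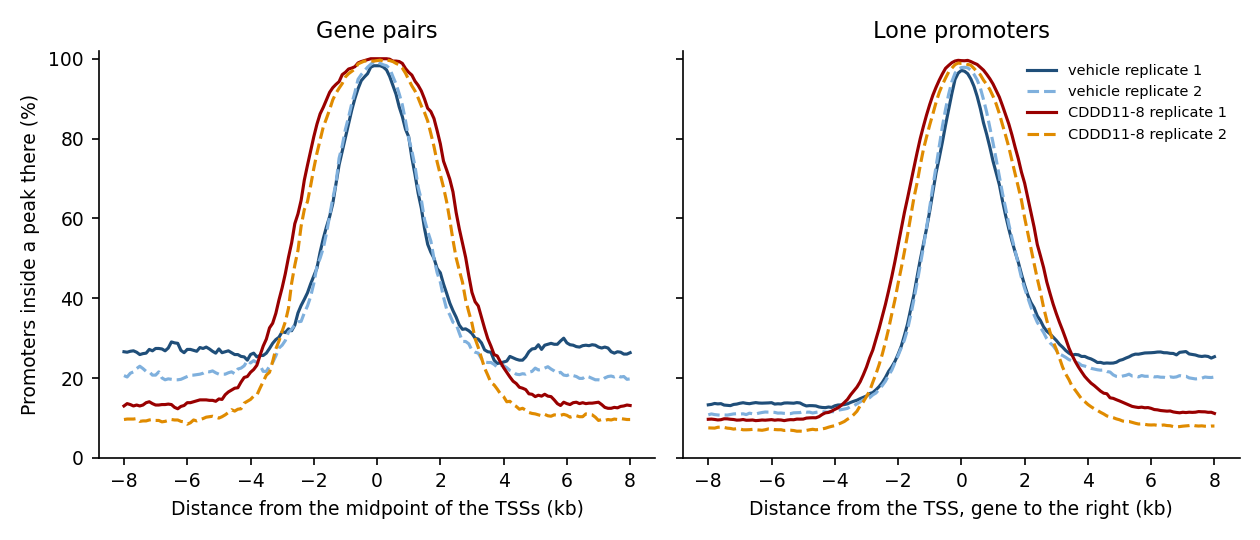
Percent of promoters that lie inside an RNAPII peak at each distance, for 854 gene pairs (left, x axis in kb from the midpoint of the TSSs) and 6489 lone promoters (right, kb from the TSS with the gene to the right), each with a peak in all 4 libraries; lines are single libraries. Both CDDD11-8 lines lie above both vehicle lines at 2 kb and below them at 8 kb, on both sides of the pairs.

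A summit is the point of highest signal within a peak, and a peak can hold several. Pair promoters with a peak in all 4 libraries held 1.29 and 1.27 summits on average with vehicle and 1.19 and 1.22 with CDDD11-8, which gave 1.28 ± 0.0124 (SD, n = 2) and 1.20 ± 0.0232 (SD, n = 2). Lone promoters held 0.983 and 0.976, and 0.945 and 0.947. A single summit was the most common state, at 597 and 597 pairs with vehicle and at 658 and 624 with CDDD11-8. There were 236 and 228 pairs with 2 summits with vehicle, and 173 and 189 with CDDD11-8. A summit was present on both sides of the midpoint in 28.0% and 26.3% of pairs with vehicle and in 19.8% and 21.9% with CDDD11-8, a difference of −6.32 percentage points with no overlap between treatments (exact permutation test, p = 0.333). Both differences depended on the window. Within 150 bp of the TSSs the number of summits differed by −0.0200 and the treatments overlapped (exact permutation test, p = 0.667), and within 500 bp it differed by −0.141. The difference for both sides was −2.35 points when summits were counted within 150 bp of the TSSs and −9.82 points within 500 bp.

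How often both sides held a summit went with the distance between the TSSs. The shares with vehicle were 9.32% ± 1.80 (SD, n = 2) for TSSs 1 to 100 bp apart, 20.8% ± 0.543 for 101 to 300 bp, 46.1% ± 5.01 for 301 to 500 bp and 70.0% ± 1.41 for 501 to 1000 bp. With CDDD11-8 they were 4.87% ± 2.10, 14.2% ± 1.99, 37.0% ± 2.23 and 64.0% ± 2.83. In all 4 classes both CDDD11-8 values lay below both vehicle values. These classes held 236, 391, 127 and 100 pairs. The window runs from 300 bp outside the minus-strand TSS to 300 bp outside the plus-strand TSS, so it is longer where the TSSs are farther apart, and part of the rise with distance is built into the measure.

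**Figure D2:**
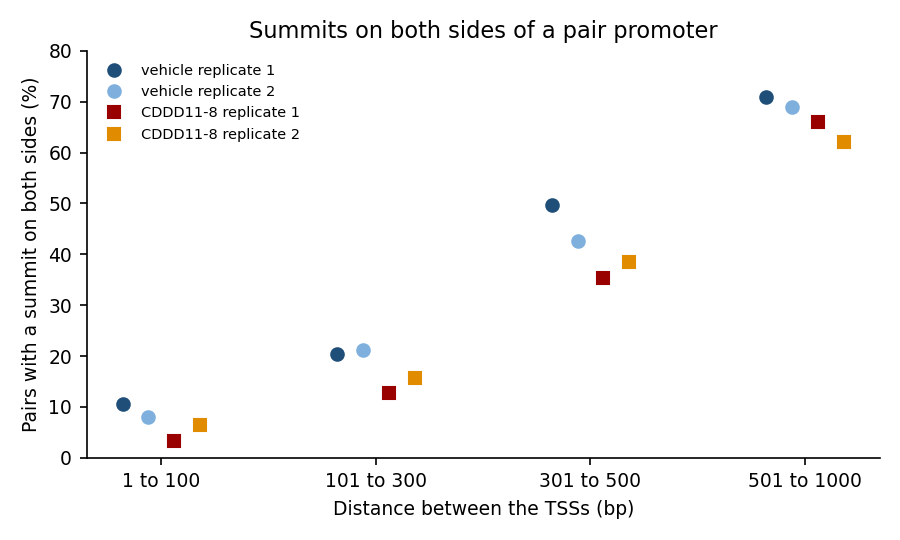
Percent of pairs with a summit on both sides of the midpoint (y axis) by the distance between the TSSs in bp (x axis), with 1 point per library. The share lies between 3.39% and 10.6% at 1 to 100 bp and between 62.0% and 71.0% at 501 to 1000 bp, and the CDDD11-8 points lie below the vehicle points in each class.

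Where both sides held a summit, the strongest summit of each lay a short way inside its gene when the TSSs were close and at the TSS when they were far apart. For TSSs 1 to 100 bp apart, the minus summit lay 195 and 172 bp downstream of its TSS with vehicle and 161.5 and 186 bp with CDDD11-8, as medians. The plus summit lay 120 and 181 bp downstream, and 167 and 131 bp. Few pairs of this class held both summits, namely 25 and 19 under vehicle treatment and only 8 and 15 under the inhibitor. For TSSs 501 to 1000 bp apart the medians on the minus side were 25 and 16 bp with vehicle. They were 5.5 and 10.5 bp with CDDD11-8. A counted summit could lie up to 300 bp inside its gene, but upstream only as far as the midpoint. Close TSSs leave little room upstream, which by itself places summits inside the genes. The contrast between near and distant TSSs is therefore partly built into the choice of pairs, and any part beyond that was not tested. The median spacing between the summits in the closest class came to 395 bp ± 18.4 (SD, n = 2) for vehicle and to 376 bp ± 26.9 (SD, n = 2) for CDDD11-8, and it was 692 bp ± 2.83 and 726.25 bp ± 0.354 in the widest. Where a promoter held a single summit, it lay between the TSSs in 26.2% ± 4.98 of such promoters of the closest class with vehicle and in 25.9% ± 2.07 with CDDD11-8. In the widest class, where each vehicle library had only 27 promoters with a single summit, 63.0% of them had it between the TSSs in each library, and the share was 52.1% ± 3.03 with CDDD11-8. The span between the TSSs fills more of the window when they are far apart, so this contrast between classes is also partly built in. Over all pairs, the median position of the strongest summit was between −23.5 and −8.25 bp from the midpoint in the 4 libraries, where negative values lie towards the minus-strand gene.

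The peak over a pair was wider in the CDDD11-8 libraries. Its median width was 3310.5 and 3424 bp with vehicle and 5471 and 4908.5 bp with CDDD11-8, a difference of 1822.5 bp between means of 3367.25 ± 80.3 (SD, n = 2) and 5189.75 ± 398 (SD, n = 2), with no overlap (exact permutation test, p = 0.333). Of the 854 pairs, 599 (70.1%) had both CDDD11-8 widths above both vehicle widths, against 64.4% of all 9701 protein-coding promoters with a peak in every library. A further 69 (8.08%) were narrower, against 9.43%. With peaks within 1 kb of each other merged, the difference was 1120.5 bp, again with no overlap, and 49.2% of pairs were wider. Narrower pairs made up 14.0% when vehicle replicate 2 was left out and 13.3% without CDDD11-8 replicate 1, as fewer libraries separate more easily. Width was alike across TSS distances, at 3406 bp for the closest and 3736.5 bp for the widest class with vehicle, and 5170.75 and 5618.25 bp with CDDD11-8.

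Pairs had wider peaks than lone promoters in every library. Lone medians were 2793 and 2892 bp with vehicle and 4528 and 4050 bp with CDDD11-8, so that pairs were wider by 517.5 and 532 bp and by 943 and 858.5 bp (exact sign-flip test over 4 libraries, p = 0.13). This excess was larger by 376 bp with CDDD11-8 (exact permutation test, p = 0.333). When peaks within 1 kb of each other were merged, the excess was 902.5 and 963.5 bp with vehicle and 937 and 974 bp with CDDD11-8, and the difference between treatments was 22.5 bp (exact permutation test, p = 0.667). The width of a pair takes in the span between the TSSs and a downstream side for each gene, whereas a lone peak has an upstream side. Peaks over lone TSSs ran a median of 1233 and 1229 bp upstream with vehicle and 2036 and 1800 bp with CDDD11-8. Part of the excess is thus built into the measure.

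Spread into each gene was first measured as reach, the distance from a TSS to the end of the joint peak in the direction of transcription. It was taken for the 819 pairs that had 1 peak over both TSSs in all 4 libraries. Median reach was 1507.5 and 1549 bp with vehicle and 2601 and 2352 bp with CDDD11-8, and the treatments did not overlap (difference 948.25 bp, exact permutation test, p = 0.333). The sides were alike on average, with 1533 and 1546 bp into the minus-strand gene and 1470 and 1563 bp into the plus-strand gene with vehicle. With CDDD11-8 they were 2598 and 2392 bp, and 2602 and 2308 bp. Reach was longer in both CDDD11-8 libraries on 1105 of 1638 single sides (67.5%), against 59.1% of 9337 protein-coding genes, and shorter on 112 (6.84%), against 9.92%. Lone genes had a reach of 1541 and 1610 bp with vehicle and 2434 and 2209 bp with CDDD11-8. The paired median minus the lone median was thus −33.5 and −61 bp with vehicle and 167 and 143 bp with CDDD11-8, a change of 202.25 bp with no overlap (exact permutation test, p = 0.333). With the canonical isoform in place of the longest, this difference was 23.5 and 6.5 bp with vehicle and 246 and 196 bp with CDDD11-8.

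The sides of a pair were less unequal with CDDD11-8. Inequality was taken as the size of the log2 ratio between the reaches, and its median was 0.79 and 0.66 with vehicle and 0.35 and 0.37 with CDDD11-8 (difference −0.37, no overlap, exact permutation test, p = 0.333). The reaches were within 2-fold of each other in 60.0% and 66.3% of pairs with vehicle and in 85.0% and 86.2% with CDDD11-8. They were more than 4-fold apart in 14.4% and 11.4%, and in 4.27% and 3.79%. Inequality was lower in both CDDD11-8 libraries in 368 of 819 pairs (44.9%) and higher in 71 (8.67%). The same measure taken up and down from every protein-coding TSS was lower in 43.7% and higher in 8.45%. Lone promoters, measured likewise, had medians of 0.83 and 0.75 with vehicle and 0.43 and 0.43 with CDDD11-8. The paired median minus the lone one was −0.03 and −0.09, and −0.08 and −0.06 (exact sign-flip test over 4 libraries, p = 0.13). Across pairs within a library, Spearman's rho between the reaches was 0.489 and 0.502 with vehicle and 0.621 and 0.576 with CDDD11-8. This is a description over 819 pairs, whose sides share a peak and a library.

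**Figure D3:**
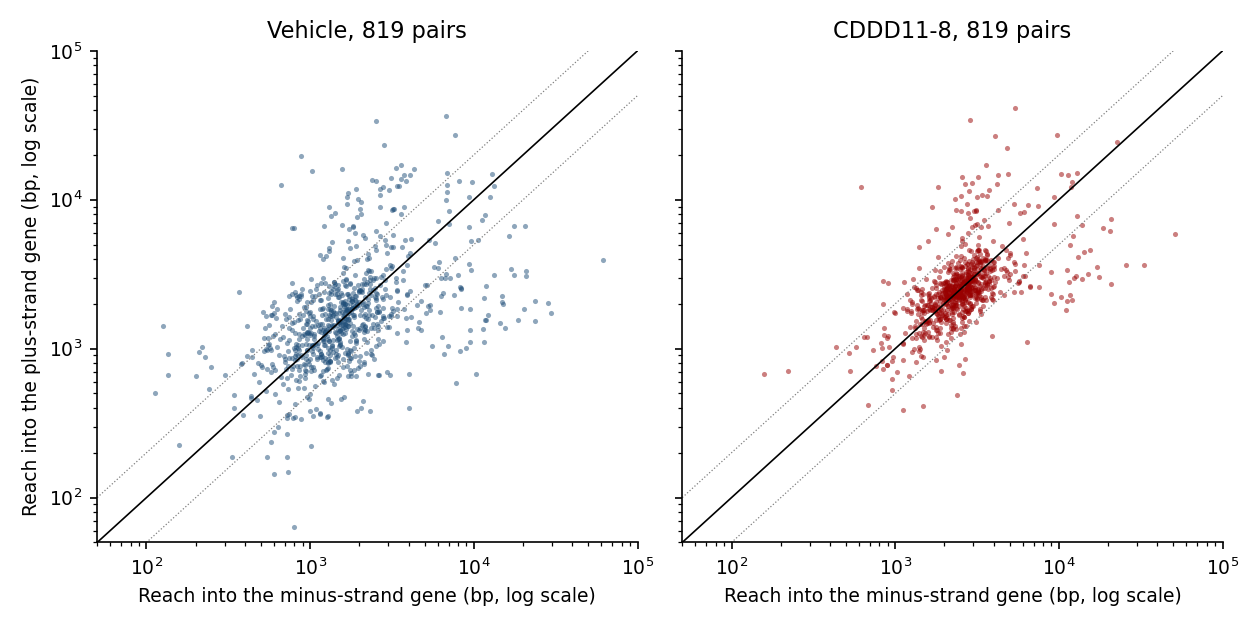
Reach in bp into the minus-strand gene (x axis, log scale) and the plus-strand gene (y axis, log scale) for 819 pairs, each point the mean of the 2 libraries of a treatment; the solid line marks equal reach and dotted lines mark 2-fold. Points lie closer to the solid line with CDDD11-8, where 85.0% and 86.2% of pairs in single libraries were within 2-fold, than with vehicle, where 60.0% and 66.3% were.

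The side that reached farther was partly kept between libraries. The same side was the longer one in 73.1% of pairs between the vehicle libraries and in 74.1% between the CDDD11-8 libraries, but in 65.1% to 68.3% between treatments. In 328 pairs chosen because the sides were at least 2-fold apart in vehicle replicate 1, the medians of the longer and shorter side there were 2836 and 923.5 bp, as the choice required. In vehicle replicate 2, which the choice did not use, they were 2268 and 1242 bp. They were 3040.5 and 2468.5 bp in CDDD11-8 replicate 1 and 2696 and 2219 bp in replicate 2. Both sides were thus longer with CDDD11-8 than in vehicle replicate 2, and the gap between the medians was 1026 bp in vehicle replicate 2 and 572 and 477 bp with CDDD11-8.

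The changes in reach of both sides were set side by side. Mean reach was longer with CDDD11-8 on both sides of 601 pairs and shorter on both of 43, which together were 78.6% of 819. Counting only sides whose treatments did not overlap, both were longer in 407 pairs (49.7%), both shorter in 6, and the sides went opposite ways in 50 (6.11%). With 67.5% of single sides longer, many pairs have both sides longer even if the sides are unlinked, so no link between them is read from these counts. Where peaks within 1 kb were merged, both sides were longer in 31.2% of pairs. Of the 112 sides that were shorter, 50 had a partner that was longer and 12 a partner that was also shorter. The changes of the sides, in bp, had a Spearman's rho of 0.280 over the 819 pairs.

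RNAPII in the gene body was measured as coverage, the percent of bases starting 300 bp into the gene and ending 3 kb beyond its end that lay inside a peak. Both genes could be measured in 275 pairs with a peak in every library, where each gene was at least 1 kb long and no protein-coding gene but its partner lay within 3 kb. Mean coverage was 21.9% and 17.7% with vehicle and 14.9% and 12.7% with CDDD11-8, a difference of −6.05 percentage points with no overlap (exact permutation test, p = 0.333). It was −3.88 points without vehicle replicate 1. With the 21842 best peaks of each library, coverage was 16.5% and 14.5% with vehicle and 15.0% and 13.0% with CDDD11-8, and the treatments overlapped (difference −1.45 points, exact permutation test, p = 0.667). The minus and plus sides were alike on average, at 21.5% and 22.4% in vehicle replicate 1 and at 12.9% and 12.4% in CDDD11-8 replicate 2.

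Coverage was higher with CDDD11-8 close to the TSS and lower far from it. In 552 paired genes of at least 20 kb, 46.4% and 47.9% of the bases from 1 to 2 kb after the TSS were in a peak with vehicle and 84.4% and 78.8% with CDDD11-8. From 2 to 5 kb it was 13.3% and 11.4%, and 21.8% and 17.2%. From 5 to 10 kb it was 9.79% and 5.30% with vehicle and 2.35% and 1.64% with CDDD11-8. The band of 10 to 20 kb had 9.35% and 5.07%, and 1.80% and 1.52%. The treatments did not overlap in any of these bands. The bands were taken from the full lists, in which vehicle had more peaks, and were not repeated with equal numbers of peaks.

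Paired gene bodies were less covered than lone ones with vehicle and not with CDDD11-8. Mean coverage of 3928 lone gene bodies was 24.8% and 20.7% with vehicle and 14.4% and 11.7% with CDDD11-8. Paired minus lone coverage was −2.85 and −3.02 percentage points with vehicle and 0.523 and 0.934 points with CDDD11-8, a shift of 3.66 points with no overlap (exact permutation test, p = 0.333). In the band from 1 to 2 kb, paired minus lone coverage was −3.16 and −5.14 points with vehicle and 4.40 and 3.78 points with CDDD11-8. From 5 to 10 kb it was −3.77 and −2.84 points with vehicle and −0.340 and −0.179 points with CDDD11-8. Paired genes with a measured body were shorter than lone ones, with medians of 31.3 and 38.8 kb, and coverage was also compared within classes of gene length. For genes of 10 to 30 kb, paired minus lone coverage was −3.32 and −4.58 points with vehicle and 1.27 and 1.49 points with CDDD11-8, and for genes over 100 kb it was −3.64 and −2.42 points, and −0.432 and −0.142 points. The sign with vehicle depended on the gene filter. When all paired and lone genes were taken, whatever their neighbours, paired minus lone coverage was 1.78 and 1.41 points with vehicle and 3.55 and 3.61 points with CDDD11-8.

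Changes in coverage were counted likewise. Of 550 single sides, coverage was lower in both CDDD11-8 libraries on 184 (33.5%) and higher on 209 (38.0%). The shares were 44.9% and 24.5% for 4010 protein-coding genes with no protein-coding gene within 3 kb. That filter leaves out every paired gene, so these are not shares over all genes. Both bodies were lower in 37 pairs (13.5%), both higher in 44 (16.0%) and in 57 (20.7%) the sides went opposite ways. These joint counts follow in part from the single-side shares, and no link between the sides is read from them. Among the 57, the longer gene was the less covered one in 3 of 13 pairs with both genes under 30 kb, in 8 of 21 with both over 30 kb, and in 5 of 23 with 1 gene on either side of that length. The mean change had the same sign on both sides in 147 of 275 pairs (53.5%), with 68 both lower and 79 both higher, and a Spearman's rho of 0.135. Within a library, Spearman's rho between the coverages of both bodies was 0.392 and 0.369 with vehicle and 0.404 and 0.368 with CDDD11-8, as a description over the 275 pairs. When the body began 2 kb after the TSS, it was 0.332 and 0.317 with vehicle and 0.479 and 0.405 with CDDD11-8, which did not overlap. These shares depended on the libraries and lists used. Pairs going opposite ways made up 32.4% without vehicle replicate 1 and 37.3% without vehicle replicate 2, and both bodies were lower in 22.1% without vehicle replicate 2. Both were higher in 28.4% without vehicle replicate 1 and in 24.3% without CDDD11-8 replicate 2. With equal numbers of peaks, both were lower in 5.28% and both higher in 33.6%. With −log10 q of at least 5, both were lower in 8.89%. Both were higher in 4.00% when the body began 2 kb after the TSS, and in 9.84% when all paired genes were taken.

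**Figure D4:**
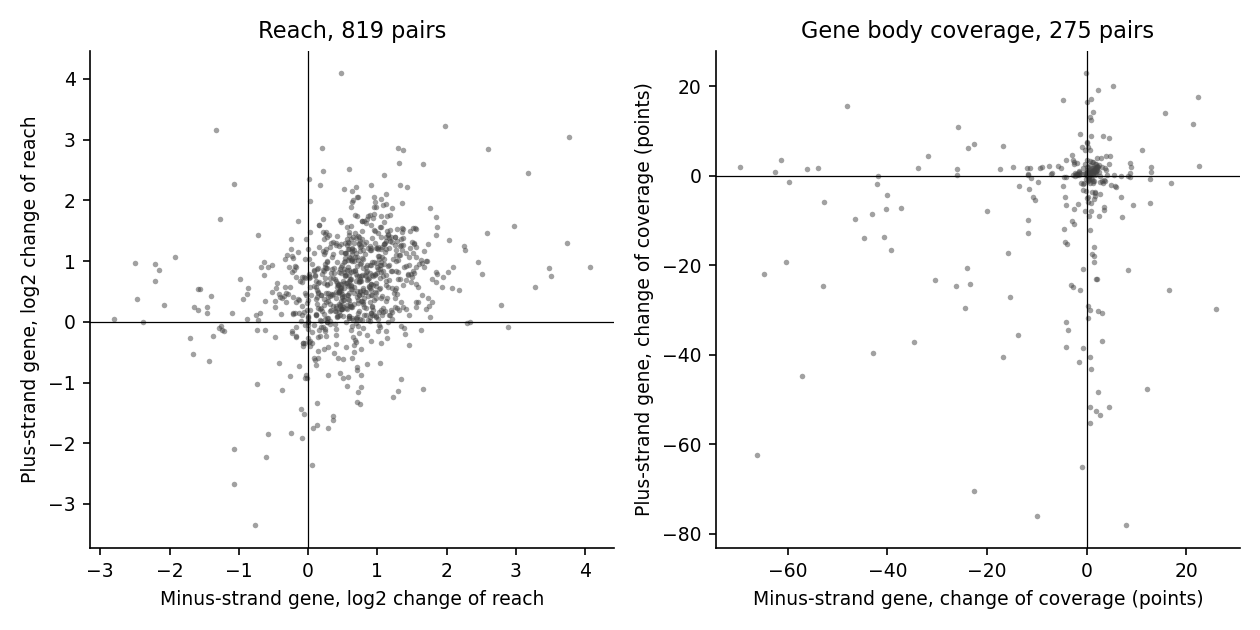
Change with CDDD11-8 on the minus-strand side (x axis) and the plus-strand side (y axis) of each pair, as the log2 ratio of mean reach for 819 pairs (left) and as the difference of mean gene body coverage in percentage points for 275 pairs (right). Reach has most points in the upper right part (601 pairs), whereas coverage has many points near 1 axis, with a large difference on 1 side and a small one on the other.

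Which gene body was the more covered one was mostly kept between libraries. The same side had more coverage in 90.5% of the 275 pairs between the vehicle libraries and in 93.5% between the CDDD11-8 libraries, and in 74.2% to 80.4% between treatments. In 100 pairs whose bodies were at least 20 percentage points apart in vehicle replicate 1, the higher body had 54.8% and the lower 11.0% in vehicle replicate 2. They had 36.3% and 12.2% in CDDD11-8 replicate 1 and 31.6% and 9.25% in replicate 2. The gap was 43.8, 24.1 and 22.4 points in these 3 libraries, and the same body was the higher one in 98, 85 and 85 pairs. The higher body had less coverage with CDDD11-8 than in vehicle replicate 2, and that of the lower body lay on either side of its value there. These coverages come from the full lists, in which vehicle had more peaks, and were not repeated with equal numbers. For the fold enrichment of summits, the stronger side was the same in 59.8% of 82 pairs between vehicle libraries, 56.1% between CDDD11-8 libraries and 48.8% to 59.8% between treatments.

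Of 22 gene pairs listed as textbook candidates, 12 met the rule with the longest isoform and 17 with the canonical isoform, and 3 of the 22 overlapped at their 5′ ends. Whether the others lie head to head at all was not checked, so these counts do not show how many known bidirectional pairs the rule finds. Among the 12, COL4A1/COL4A2, the type IV collagen chains of basement membranes, had no promoter peak in any library. The other 11 had 1 peak over both TSSs in all 4 libraries. PPAT/PAICS, which encode enzymes of purine synthesis 645 bp apart, was 3782 and 3685 bp wide with vehicle and 5534 and 4676 bp with CDDD11-8. Its PAICS body was covered to 39.2% and 33.7% with vehicle and to 18.9% and 15.7% with CDDD11-8, whereas PPAT had 5.90% and 5.32%, and 7.99% and 6.13%. The treatments did not overlap for PAICS, and the PPAT body was slightly more covered in both CDDD11-8 libraries.

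PRKDC/MCM4, with TSSs 800 bp apart, pairs the catalytic subunit of the DNA-dependent protein kinase with a subunit of the replicative helicase. It had 2 summits in each library, of which the PRKDC summit lay 19 to 62 bp upstream of its TSS and the MCM4 summit from 23 bp upstream to 25 bp downstream of its own. The MCM4 body was covered to 94.2% and 83.9% with vehicle and to 14.3% and 11.5% with CDDD11-8, and the PRKDC body to 17.1% and 5.47%, and 1.52% and 1.24%. Both bodies were less covered with CDDD11-8, and MCM4 by more points. NPAT/ATM, a coactivator of histone genes beside the kinase that senses double-strand breaks, was 2496 and 2923 bp wide with vehicle and 5581 and 4847 bp with CDDD11-8. TMEM258/FEN1 pairs an oligosaccharyltransferase subunit with a flap endonuclease of replication, and its FEN1 body was covered to 84.6% and 75.0% with vehicle and to 47.5% and 49.5% with CDDD11-8.

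XPC/LSM3 joins a damage sensor of nucleotide excision repair to a spliceosomal protein, and the LSM3 body had 16.9% and 16.6% with vehicle and 5.92% and 9.16% with CDDD11-8. UFD1/CDC45, an adaptor of protein degradation beside a replication factor, was 3056 and 3798 bp wide with vehicle and 5981 and 4760 bp with CDDD11-8. HIRA/MRPL40, a histone chaperone beside a protein of the mitochondrial ribosome, had widths of 4476 and 6163 bp and of 7914 and 7287 bp. In all 3 pairs the treatments did not overlap in these values. SARS2/MRPS12, whose span above holds 4 CCAAT boxes, encodes a mitochondrial seryl-tRNA synthetase and a mitochondrial ribosomal protein. It was 2366 and 4043 bp wide with vehicle and 4206 and 4001 bp with CDDD11-8, which overlapped. SURF1/SURF2, of which SURF1 serves the assembly of cytochrome c oxidase, had 20303 and 19038 bp and then 33434 and 16930 bp, and also overlapped. Its peak was shared with the neighbouring pair MED22/RPL7A.

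The 5 pairs whose peak was wider by the most came from 2 places. TMEM203/NDOR1 was 4711 and 4610 bp wide with vehicle and 49935 and 43978 bp with CDDD11-8. The peak of the latter libraries was the same one that covered ANAPC2/SSNA1, which had 7929 and 8088 bp with vehicle. ANAPC2 encodes a subunit of the anaphase-promoting complex. The remaining 3 are histone pairs of 1 cluster on chromosome 6, H2BC13/H2AC13, H2AC14/H2BC14 and H2AC15/H2BC15, which shared a peak of 37640 and 36754 bp with CDDD11-8. With vehicle the first and second shared a peak of 14928 and 15509 bp and the third had one of 20397 and 20624 bp. Summits at H2AC14/H2BC14 were found on both sides in all 4 libraries. They lay 94 to 207 bp inside H2AC14 and 243 to 293 bp inside H2BC14.

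In the 5 pairs that were narrower by the most, the vehicle peak ran past the end of 1 gene. RHBDD3/EWSR1 reached 36136 and 36694 bp into EWSR1, which encodes an RNA-binding protein, with vehicle and 3757 and 3386 bp with CDDD11-8. TK1/AFMID reached 20326 and 20045 bp into TK1, the thymidine kinase of S phase, and 3429 and 2374 bp with CDDD11-8, while the reach into AFMID was 2043 and 1669 bp and then 2156 and 1673 bp. XRCC3/ZFYVE21 reached 25893 and 21339 bp into XRCC3, which acts in homologous recombination, and 4703 and 3616 bp with CDDD11-8, but reached farther into ZFYVE21, with 1477 and 1588 bp and then 3413 and 2578 bp. PTRH2/VMP1 reached 23858 and 23096 bp into PTRH2, a peptidyl-tRNA hydrolase, and 5327 and 5240 bp with CDDD11-8. TRIAP1/GATC reached 25696 and 28732 bp into and past GATC, which encodes a subunit of a mitochondrial amidotransferase, and 4844 and 3740 bp with CDDD11-8.

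**Figure D5:**
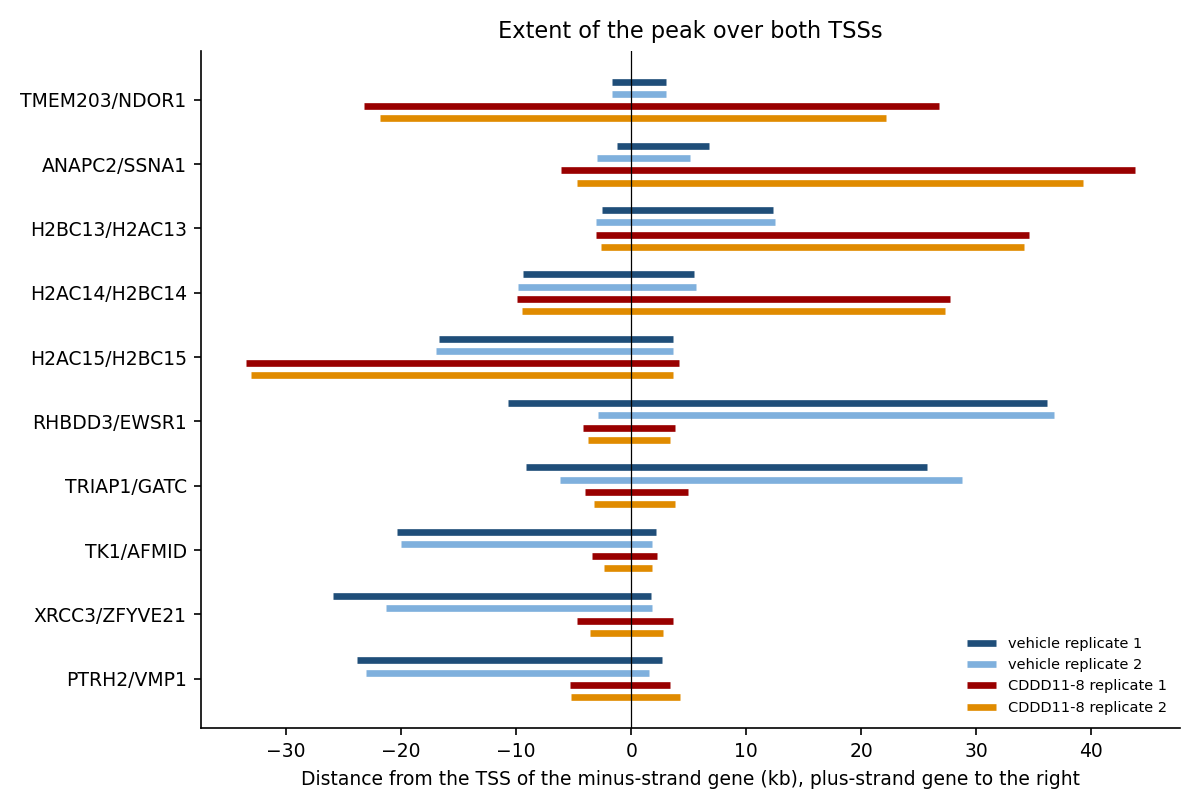
Extent in kb of the peak over both TSSs (x axis, 0 at the TSS of the minus-strand gene, plus-strand gene to the right) for the 5 pairs with the largest and the 5 with the most negative change of width, 1 bar per library. The long vehicle bars of the lower 5 pairs lie on 1 side, such as 36136 and 36694 bp into EWSR1, and the CDDD11-8 bars of these pairs are 4177 to 9484 bp in all.

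The 5 pairs with the largest fall of coverage on both sides were chosen for this fall, so their values are a description. Coverage, reach and width of all single pairs named in the text come from the full lists, in which vehicle had more peaks. They were not repeated with equal numbers of peaks. SNX5, a sorting nexin, had 100% and 93.5% with vehicle and 32.9% and 28.5% with CDDD11-8, and its partner MGME1, an exonuclease of mitochondrial DNA, had 89.3% and 66.2%, and 17.0% and 13.5%. GUCD1 had 91.0% and 70.9% and then 25.7% and 22.1%, and its partner SNRPD3, a core protein of spliceosomal particles, had 75.5% and 44.5% and then 19.2% and 11.3%. NDUFS1, of respiratory complex I, had 49.0% and 31.7% and then 5.81% and 5.45%, beside the translation factor EEF1B2 with 87.9% and 84.2% and then 48.2% and 49.4%. CIAO1, of cytosolic iron-sulfur assembly, and the mitochondrial ribosomal gene MRPL57 led the remaining pairs, with 96.6% and 92.5% against 72.8% and 68.0%, and with 81.9% and 82.5% against 61.2% and 61.9%. Their partners TMEM127 and SKA3 had 57.4% and 33.4% against 31.2% and 12.9%, and 41.4% and 32.3% against 13.0% and 12.8%.

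The 5 pairs whose sides differed most in their change, likewise chosen for it, each had 1 largely covered body with vehicle. ZNF207, a zinc finger protein of the mitotic spindle, had 93.0% and 88.7% with vehicle and 14.6% and 10.8% with CDDD11-8, while its partner C17orf75 had 42.3% and 24.8% and then 45.2% and 37.7%. DBI, the acyl-CoA binding protein, had 100% in both vehicle libraries and 38.3% and 31.2% with CDDD11-8, and its partner C2orf76 had 4.16% and 4.97% and then 3.66% and 3.77%. ATAD2, a bromodomain protein with an ATPase domain, had 80.5% and 78.4% and then 10.9% and 9.04%, and its partner NTAQ1 had 2.17% and 1.12% and then 4.40% and 2.87%. TMEM60 had 95.2% and 91.6% and then 35.2% and 26.4%, beside PHTF2 with 0.362% and 0.529% and then 1.37% and 1.45%. PRKDC/MCM4, described above, was the fifth.

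Gene groups were read in the same way, by how many pairs with a listed gene were wider or narrower in both CDDD11-8 libraries. Of all 854 pairs with a peak, 70.1% were wider and 8.08% narrower, and of all protein-coding promoters 64.4% and 9.43%. Of 98 DNA repair genes, 35 were in a pair, and of these 35 pairs 27 were wider and 3 narrower. Examples are MDC1/TUBB, which was narrower at 18448 and 15342 bp against 31711 and 21083 bp with vehicle, and OSGEP/APEX1, with 12908 and 12688 bp against 11916 and 10895 bp. Of 51 DNA replication genes 15 were in pairs, 13 of which were wider and 1, TK1/AFMID, narrower. TRMT6/MCM8 had 3864 and 3423 bp with vehicle and 6490 and 5053 bp with CDDD11-8, and POLE3/C9orf43 had 2374 and 2450 bp and then 3832 and 4413 bp. Zinc finger genes gave 48 of 566 to 39 pairs, of which 37 had a peak in all libraries, 29 were wider and none was narrower.

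Mitochondrial genes gave 65 of 261 to 60 pairs, with 35 wider and 8 narrower of 58 with a peak. PPP1R10/MRPS18B and ARFIP2/TIMM10B were narrower, at 10282 and 10468 bp against 30324 and 15201 bp, and at 17955 and 16647 bp against 28654 and 19835 bp. The RNA polymerase II machinery gave 32 of 151 genes to 31 pairs, with 20 wider and 3 narrower of 30. Among them, the peak over the largest RNAPII subunit gene, ZBTB4/POLR2A, was 6262 and 6323 bp wide with vehicle and 9196 and 9161 bp with CDDD11-8.

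Of 87 cytosolic ribosomal protein genes 10 (11.5%) were in pairs, which had median widths of 10688 and 10688.5 bp with vehicle and 11285.5 and 8897 bp with CDDD11-8. Here 3 pairs were wider and 4 narrower. Reach into the ribosomal gene was longer in 1 and shorter in 5 of the 10, against 59.1% and 9.92% of 9337 protein-coding genes. RPS25/TRAPPC4 was narrower, with 8373 and 7898 bp against 23975 and 22709 bp with vehicle, whereas RPL35/ARPC5L was wider, with 19731 and 19112 bp against 9900 and 10820 bp. Histone genes gave 22 of 69 to 11 pairs, in which both genes were histones, with 4 wider and 1 narrower of 10 with a peak. Their widths had medians of 14928 and 13619.5 bp with vehicle and 19634.5 and 20253 bp with CDDD11-8. Among all promoters 64.4% were wider and 9.43% narrower, and no list was tested against them.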

How the data were processed

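RNAPII was immunoprecipitated with the antibody CTD4H8 from MDA-MB-453 cells, and read totals per library are not in the lists. The authors used Bowtie 2 for alignment to GRCh37 and MACS2, at default settings, for peaks of each library over its paired input. In the deposited lists the pileup is a signal, the fold enrichment a ratio to local background, and the p-value and q-value are on the −log10 scale, with a smallest −log10 q of 2.00. No replicates were pooled, and the 4 input libraries were not analysed here. The peak caller's pileup is scaled between ChIP and input, so widths and coverage depend on depth and scaling, which are not given for single libraries, as well as on RNAPII.

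Rows that share a region were joined into 1 peak. Pairs came from GENCODE release 44 in GRCh37 coordinates, with each gene in 1 pair. Overlapping 5′ ends entered only as an alternative. Lone promoters had no other protein-coding TSS within 5 kb, and their summits were counted within 300 bp. Treatments were tested on 1 value from each library by exact two-sided permutation over 6 splits, and paired minus lone values by a sign-flip test. A call means that both CDDD11-8 values lay beyond both vehicle values. p-values measure the spread between 2 passages of 1 line.

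Members and lists were chosen with earlier results of these data known. The genes named are textbook pairs (the values of 1 are not reported here), the first pairs of functional lists by summed fold enrichment, the 5 pairs wider and the 5 narrower by the most when same-numbered libraries were compared, and those 5 whose coverage fell most on both sides or differed most between sides. Once each library's mean was taken out, same-numbered libraries did not deviate together (correlation −0.0208 over 854 log2 widths). Shifts of a whole library, such as the higher mean coverage in replicate 1 of both treatments, cannot show in this check. No block was used in the main tests. The measures returned the planted values at all 877 pairs with simulated peaks. Alternatives covered the number of peaks, the q-value, merging, TSS distance, isoform, windows, gene filters, lone sets, a replicate block and leaving out each library. Scripts ran in Python 3.11.15 (pandas 2.3.3, numpy 2.4.6, matplotlib 3.10.9, scipy 1.17.1).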

Additional observations from a re-analysis of the deposited data

How the results depend on the processing

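No comparison of treatments could pass 0.05 in this design, so stability was read from direction and size. Leaving out a library and the replicate block are given below. Under the other alternatives, 131 values kept their direction or, for shares of pairs, stayed within 1.5 times. Another 10 reversed, and 7 shares of pairs moved by more than 1.5 times. Differences that kept their direction could still change in size: merging peaks within 1 kb took width from 1822.5 to 1120.5 bp and the change in excess over lone promoters from 376 to 22.5 bp, and equal numbers of peaks took coverage from −6.05 to −1.45 points. The difference in likeness of the sides (rho of coverage, 0.00532 as reported) reversed to −0.00298 with equal numbers of peaks, −0.0166 with −log10 q of at least 5, −0.00348 with TSSs within 500 bp, −0.0110 with overlapping 5′ ends and −0.0315 with the canonical isoform, but rose to 0.118, without overlap, with the body from 2 kb and to 0.0363 with all paired genes. The shift between treatments of paired minus lone occupancy (−0.0346 points as reported) reversed to 0.250 with the q-value limit, 0.113 with overlapping 5′ ends and 0.123 without lncRNA neighbours. That of paired minus lone inequality (−0.0089) reversed to 0.0013 with the q-value limit and 0.0021 with overlapping 5′ ends. The cause of these changes of sign was not tested. Merging peaks within 1 kb moved narrower pairs to 18.1% and pairs reaching further on both sides to 31.2%. Both bodies were less covered in 5.28% of pairs with equal numbers of peaks and 8.89% with the q-value limit. Both were more covered in 33.6% with equal numbers, 4.00% with the body from 2 kb and 9.84% with all paired genes.

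Leaving out each library in turn gave −0.0129 to 0.0301 for likeness, −0.618 to 0.549 points for paired minus lone occupancy and −0.0343 to 0.0245 for inequality. It gave 8.64% to 14.0% for narrower pairs, 14.9% to 22.1% for both bodies less covered, 17.5% to 28.4% for both more covered and 28.4% to 37.3% for bodies moving apart. Fewer libraries overlap less by construction. The replicate block compared same-numbered libraries. Its mean difference equals the reported one by construction, such as 1822.5 bp for width (exact sign-flip test, p = 0.5, the smallest it can give). It therefore shows nothing about stability, and calls were not repeated with it. The lists carry no read totals, so what depth limits in each library cannot be given.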
